A study of Saccharomyces cerevisiae with 12 samples.

Results

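The genes described here are 57 aminoacyl-tRNA synthetases and translation factors of Saccharomyces cerevisiae, chosen as a fixed list of gene names. Probe sets were taken where the array annotation named a listed gene, and a gene with several probe sets was represented by the brightest one on average. TIF1 and TIF2, TEF1 and TEF2, and EFT1 and EFT2 are each read by 1 shared probe set that cannot tell the genes of the pair apart. The list therefore gave 54 measurements, called members below, and all 54 were among the 5403 genes tested. They fall into 18 synthetase, 25 initiation, 7 elongation and 2 termination measurements, with PAB1 and STM1 as 2 others. GCD10 and GCD14, which encode a tRNA methyltransferase, are counted among the initiation factors throughout.

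Strain CEN.PK113-7D, a haploid prototrophic laboratory yeast of mating type a, was grown without oxygen in chemostats, vessels in which the inflow of fresh medium fixes the growth rate, at a dilution rate of 0.03 per h in all cultures. The 4 groups were nitrogen-limited cultures at 12 °C, nitrogen-limited cultures at 30 °C, carbon-limited cultures at 12 °C and carbon-limited cultures at 30 °C. Each group had 3 independent cultures and each culture 1 Affymetrix array hybridised with labelled polyA RNA. The comparisons ask how cold growth at 1 fixed growth rate shifts the transcripts of the translation machinery, and whether the limiting nutrient alters that shift.

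Protein synthesis begins when aminoacyl-tRNA synthetases charge each tRNA with its amino acid. Initiation factors then load the initiator tRNA and the mRNA onto the small ribosomal subunit, elongation factors drive the ribosome along the message, and release factors free the finished protein. In yeast the transcripts for this machinery are abundant and are known to follow growth rate, nutrient supply and stress, together with those for ribosomal proteins.

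The array signals had been scaled by the authors to a common level, so the values are relative to the other transcripts of the same array. A change in RNA per cell that is common to all transcripts does not show in them. The median signal of an array lay between 41.2 and 51.4, and 22.3% to 26.8% of all its probe sets were at or under a floor of 12. Low signals were raised to this floor before log2 was taken. All 7 a-cell marker genes were above the floor in every group. ASG7 among them rose at 12 °C, 5.91-fold under nitrogen limitation (adjusted p = 1.71e-07 in limma) and 3.96-fold under carbon limitation (3.68e-06). STE2 and AGA2 rose under nitrogen limitation only (adjusted p = 0.0231 and 0.00763), and the others passed in neither limitation. The summed signal of 4 alpha-cell markers (MF(ALPHA)1, MF(ALPHA)2, STE3 and SAG1) was 2387 to 3395 in nitrogen-limited cultures at 12 °C and 361 to 517.4 at 30 °C. In carbon-limited cultures the sum was 1413 to 1880 at 12 °C and 360.1 to 540 at 30 °C, and every warm array had MF(ALPHA)2 at the floor. All 4 alpha-cell markers rose at 12 °C under nitrogen limitation. Under carbon limitation MF(ALPHA)1 and MF(ALPHA)2 rose, while STE3 and SAG1 did not pass (adjusted p = 0.0738 and 0.264 in limma). The part of the a-cell and alpha-cell markers in the temperature results below was not tested. The ratio of 3′ to 5′ probe signal for ACT1, a sign of RNA integrity, was 1.55 ± 0.224 at 12 °C and 1.82 ± 0.112 at 30 °C under nitrogen limitation. Under carbon limitation it was 1.53 ± 0.380 at 12 °C and 1.82 ± 0.109 at 30 °C (SD, n = 3 each). The same ratio for a second control gene, TBP, was 2.53 ± 0.541 at 12 °C and 3.13 ± 0.109 at 30 °C under nitrogen limitation. Under carbon limitation the TBP ratio was higher in the cold, 3.55 ± 0.541 at 12 °C and 2.94 ± 0.380 at 30 °C. The mean signal of the spike-in control probe sets was 531 ± 205 at 12 °C and 521 ± 46.4 at 30 °C under nitrogen limitation. Under carbon limitation it was 519 ± 68.8 at 12 °C and 317 ± 33.4 at 30 °C. The highest carbon-limited array at 30 °C, at 342, was below the lowest array of the other groups, at 390. The part of these ratios and control signals was not tested either.

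Under nitrogen limitation many transcripts of the translation machinery were at a higher relative level in the cold. Of the 54 members, 21 (38.9%) rose at 12 °C relative to 30 °C and 1 (1.85%) fell, at an adjusted p below 0.05 in limma. Among all genes tested 38.2% passed, 15.9% upward and 22.3% downward, so the share of members that rose was above the background and the share that fell was below it. The median log2 difference of members was 0.39, against −0.10 over all genes, and 47 of 54 members were above 0. Other scalings moved the median of all genes by more than 0.1, to 0.02 with quantile normalization and 0.04 with median scaling. The members' median was 0.43 above that of all genes with quantile normalization, against 0.48 with the scaling as deposited. Median scaling shifts all genes of an array alike, so it cannot change this gap. Arrays at 12 °C and 30 °C did not overlap for 34 members, 32 of them higher and 2 lower at 12 °C, while 49.3% of all genes did not overlap.

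Under carbon limitation the share of members that rose was close to the background. There 8 members (14.8%) rose at 12 °C and 1 (1.85%) fell, where 25.7% of all genes passed, 13.1% upward and 12.6% downward. The median log2 difference was 0.15 for members and 0.03 for all genes, and 37 members were above 0. Arrays did not overlap for 17 members, 15 higher and 2 lower at 12 °C, against 43.3% of all genes. The count of 9 leans on single arrays. It was 1 without replicate 1 of the carbon-limited cultures at 30 °C, 4 without replicate 2 of that group and 3 without its replicate 3. Without replicate 3 of the carbon-limited cultures at 12 °C it was 4.

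**Figure D1:**
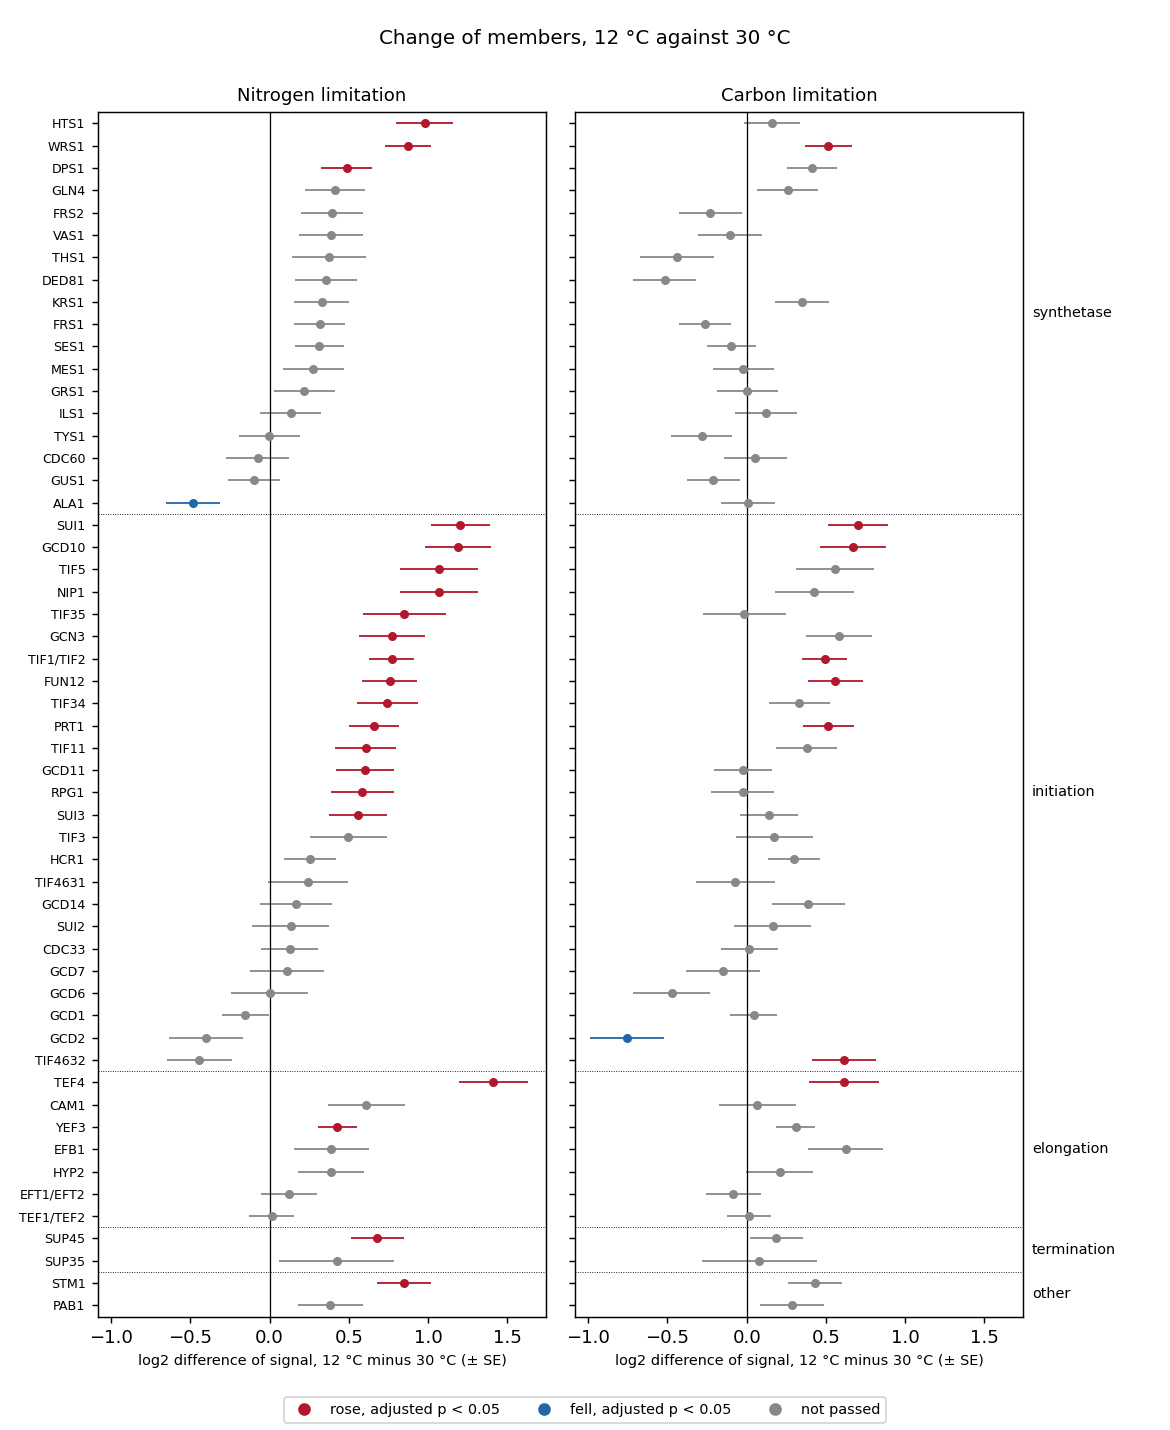
The log2 difference of signal, 12 °C minus 30 °C, is plotted for each of the 54 members with its standard error, under nitrogen limitation on the left and carbon limitation on the right, ordered by subclass. Most points lie right of 0 under nitrogen limitation, with 21 members past the threshold upward, and 8 are past it upward under carbon limitation.

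Of the members, 7 (13%) rose at 12 °C under both limitations, against 7.07% of all genes. They were the tryptophanyl-tRNA synthetase WRS1, the helicase eIF4A (TIF1/TIF2), the eIF3 subunit PRT1, eIF1 (SUI1), eIF5B (FUN12), the tRNA methyltransferase subunit GCD10 and the eEF1B gamma subunit TEF4. A further 14 rose under nitrogen limitation and did not pass under carbon limitation, 1 rose and 1 fell under carbon limitation without passing under nitrogen limitation, 1 fell under nitrogen limitation without passing under carbon limitation, and 30 passed in neither. None fell under both, where 8.03% of all genes did. No member rose under one limitation and fell under the other.

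Few synthetases passed the test. Of 18, 3 rose (HTS1, WRS1 and DPS1) and 1 fell (ALA1) at 12 °C under nitrogen limitation, a median log2 difference of 0.32 within a range of −0.48 to 0.98. The share that rose, 16.7%, was near the 15.9% of all genes. Under carbon limitation 1 of 18 (WRS1, 5.56%) rose, against 13.1% of all genes, and the median was −0.01 within −0.52 to 0.51. Grouped by catalytic fold, 1 of 8 class I enzymes rose under nitrogen limitation, and 2 of 10 class II enzymes rose and 1 fell.

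HTS1, the histidyl-tRNA synthetase of both cytosol and mitochondria, had signals of 525.6, 546 and 637.3 at 12 °C and 295.8, 278.1 and 291 at 30 °C under nitrogen limitation. All cold arrays lay above all warm ones, by a log2 difference of 0.98 ± 0.18 (SE; 1.97-fold; adjusted p = 0.000534). Under carbon limitation HTS1 gave 464.9, 291.2 and 369 at 12 °C and 346.9, 355.9 and 289.9 at 30 °C. These groups overlapped, and the difference of 0.16 did not pass (adjusted p = 0.546).

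WRS1 had signals of 663.2, 654 and 633.9 at 12 °C and 334.3, 358.9 and 372 at 30 °C in nitrogen-limited cultures, a rise of 0.87 ± 0.15 (1.83-fold; adjusted p = 0.000291). Under carbon limitation the signals were 802.2, 747.4 and 693.7 at 12 °C and 443.5, 540.7 and 595.5 at 30 °C, a rise of 0.51 ± 0.15 (1.43-fold; adjusted p = 0.0179). Neither limitation showed an overlap between temperatures for this enzyme. With 1 carbon-limited array left out in turn, its adjusted p under carbon limitation was between 0.0178 and 0.105, while that under nitrogen limitation stayed at or below 0.00217 when 1 nitrogen-limited array was left out.

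ALA1, which charges alanine tRNAs in cytosol and mitochondria, was the only member that fell at 12 °C under nitrogen limitation. Its signals were 223.3, 162.8 and 207.2 at 12 °C and 248.7, 319.7 and 258.3 at 30 °C, with no overlap and a log2 difference of −0.48 ± 0.17 (1.40-fold lower; adjusted p = 0.0373). The call did not hold without nitrogen-limited replicates 2 or 3 of either temperature, where the adjusted p was between 0.0509 and 0.158, nor with quantile normalization (0.0504), median scaling (0.145) or a fit of only the groups compared (0.0713). Under carbon limitation ALA1 had 241, 227.6 and 257.6 at 12 °C and 240.6, 222.9 and 258.9 at 30 °C, overlapping values with a difference of 0.01 (adjusted p = 0.985).

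The aspartyl-tRNA synthetase DPS1 rose by 0.49 under nitrogen limitation (adjusted p = 0.0241, between 0.0253 and 0.0848 with 1 array left out) and its difference of 0.41 under carbon limitation did not pass (adjusted p = 0.0681, and 0.0332 without carbon-limited replicate 2 at 12 °C). FRS1 and FRS2 encode the beta and alpha subunits of phenylalanyl-tRNA synthetase, whose subunits work as 1 enzyme. FRS1 had 1658.9, 1893.6 and 1732.2 at 12 °C and 1232.3, 1602.5 and 1428 at 30 °C under nitrogen limitation, and FRS2 had 124.4, 115.1 and 122.1 at 12 °C and 88.4, 87.4 and 99.4 at 30 °C. Both were higher on every cold array, with log2 differences of 0.32 and 0.40 that did not pass (adjusted p = 0.136 and 0.123). Under carbon limitation both lay on the other side of 0, at −0.26 and −0.23, again without passing (adjusted p = 0.252 and 0.423). The lysyl-tRNA synthetase KRS1 was dim: 5 of its 12 arrays, among them all 3 nitrogen-limited ones at 30 °C, were at or under the floor, and no fold is given for it under nitrogen limitation.

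Initiation factors held most of the members that rose. Of 25, 14 (56%) rose and 0 fell at 12 °C under nitrogen limitation, where 15.9% of all genes rose and 22.3% fell. The median log2 difference was 0.59 within −0.44 to 1.20. At an unadjusted p below 0.05 in limma, 1 initiation member (4%) was lower, against 28.2% of all genes. Under carbon limitation 6 (24%) rose and 1 (4%) fell, against 13.1% and 12.6% of all genes, with a median of 0.30. Arrays did not overlap between temperatures for 16 of the 25 under nitrogen limitation (15 higher at 12 °C), against 49.3% of all genes. Under carbon limitation they did not overlap for 11 of the 25 (10 higher), near the 43.3% of all genes.

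SUI1 encodes eIF1, which guards the accuracy of start codon selection. It had signals of 957.4, 879.4 and 927.6 at 12 °C and 433.6, 417.7 and 352.1 at 30 °C under nitrogen limitation, a rise of 1.20 ± 0.19 (2.31-fold; adjusted p = 0.000143). In carbon-limited cultures it had 975.6, 583.6 and 983.6 at 12 °C and 492, 478.4 and 552.6 at 30 °C, a rise of 0.70 ± 0.19 (1.63-fold; adjusted p = 0.0119). The 12 °C carbon-limited array with 583.6 stood closest to the warm arrays, yet the groups did not overlap in either limitation. Without carbon-limited replicate 1 or 3 at 12 °C the carbon call was lost (adjusted p = 0.0523 and 0.0559), and without replicate 2 at 12 °C it was 0.000558.

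The factors eIF5 and eIF1A, which bind the small subunit beside eIF1, also rose under nitrogen limitation. TIF5, encoding eIF5, the GTPase activator of eIF2, had 166.7, 91.8 and 142.8 at 12 °C and 67.2, 49.2 and 71.4 at 30 °C there, a rise of 1.07 ± 0.25 (2.10-fold; adjusted p = 0.00306) with no overlap. Under carbon limitation TIF5 gave 145, 166.7 and 110.3 at 12 °C and 87.7, 104.5 and 91.6 at 30 °C, which did not overlap, but the difference of 0.56 did not pass (adjusted p = 0.109). TIF11, encoding eIF1A, rose by 0.61 under nitrogen limitation (adjusted p = 0.0208, up to 0.0937 with 1 array left out).

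FUN12, encoding the subunit-joining GTPase eIF5B, had 544.5, 694.5 and 583.5 at 12 °C and 387.2, 370.2 and 318.7 at 30 °C under nitrogen limitation, a rise of 0.76 ± 0.17 (1.69-fold; adjusted p = 0.00294). In carbon-limited cultures it had 654, 513.9 and 492.8 at 12 °C and 356.4, 443.2 and 327.7 at 30 °C, a rise of 0.56 ± 0.17 (1.47-fold; adjusted p = 0.026). The groups were apart in both limitations, and the carbon adjusted p was between 0.0194 and 0.109 with 1 array left out.

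The eIF3 complex, the scaffold on which the other factors assemble, was higher in nearly all its subunits under nitrogen limitation. Of the 6 subunits 5 rose, with a median log2 difference of 0.70, and HCR1, the loosely bound j subunit, stood at 0.26 (adjusted p = 0.235). NIP1, subunit c, had 97.7, 67.4 and 89.6 at 12 °C and 52.1, 46.3 and 26.5 at 30 °C, a rise of 1.07 ± 0.25 (2.10-fold; adjusted p = 0.00334). TIF35, subunit g, had 689.3, 1057.5 and 979.1 at 12 °C and 344.5, 623.1 and 565.9 at 30 °C, a rise of 0.85 ± 0.26 (1.80-fold; adjusted p = 0.0173). In both genes the lowest cold array was above the highest warm array, and the adjusted p of TIF35 reached 0.108 with 1 array left out. TIF34, subunit i, rose by 0.74 (adjusted p = 0.00663), and RPG1, subunit a, by 0.59 (adjusted p = 0.029, up to 0.155 without nitrogen-limited replicate 2 at 12 °C).

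PRT1, subunit b of eIF3, rose under both limitations. Its signals were 349.4, 257.1 and 322.3 at 12 °C and 188.9, 213.4 and 182.6 at 30 °C under nitrogen limitation (0.66 ± 0.16; 1.58-fold; adjusted p = 0.00433). They were 397.1, 408.7 and 370 at 12 °C and 263.1, 279.1 and 280.4 at 30 °C under carbon limitation (0.51 ± 0.16; 1.43-fold; adjusted p = 0.0263). No arrays overlapped, but the carbon call was lost in 5 of 6 fits with 1 array left out, with an adjusted p of up to 0.0903. It was the only subunit of 6 that rose under carbon limitation, where the median of the complex was 0.32.

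The eIF2 complex carries the initiator tRNA. Under nitrogen limitation 2 of its 3 subunits rose at 12 °C, GCD11 (gamma) by 0.60 (adjusted p = 0.0167) and SUI3 (beta) by 0.56 (adjusted p = 0.0254). GCD11 had 625.6, 644.9 and 808.1 at 12 °C and 478.6, 405 and 480.6 at 30 °C with no overlap, and SUI3 had 187.3, 291.9 and 235.2 at 12 °C and 187.8, 138.2 and 155.5 at 30 °C, where the lowest cold array was just under the highest warm one. With 1 array left out the adjusted p reached 0.0744 for GCD11 and 0.122 for SUI3. The alpha subunit SUI2, the target of the Gcn2 kinase, differed by 0.13 (adjusted p = 0.698), and no eIF2 subunit passed under carbon limitation.

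In eIF2B, the exchange factor that recharges eIF2 with GTP, the subunits did not share a direction. GCN3 (alpha) rose by 0.77 under nitrogen limitation (1.71-fold; adjusted p = 0.00865), while GCD7 (beta), GCD1 (gamma), GCD2 (delta) and GCD6 (epsilon) lay between −0.40 and 0.11 without passing, and the median of the 5 was 0.00. Under carbon limitation GCN3 differed by 0.58 (adjusted p = 0.0508). It passed in 5 alternative settings (0.0412 to 0.0498), among them median scaling, but in no fit with 1 array left out. GCD2 was the only member that fell under carbon limitation. GCD2 had 23.5, 18.4 and 17.5 at 12 °C and 31.9, 36 and 31.6 at 30 °C in carbon-limited cultures, with no overlap and a log2 difference of −0.75 ± 0.23 (1.69-fold lower; adjusted p = 0.0264). Under nitrogen limitation it had 11.2, 24.5 and 21.2 at 12 °C, the first of these under the floor, and 23.5, 23 and 26.6 at 30 °C, an overlapping pair of groups with a difference of −0.40 (adjusted p = 0.187). All its signals were low, and the carbon call was lost in 5 of 6 fits with 1 array left out (adjusted p up to 0.0896) and with quantile normalization (0.0501).

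GCD10 and GCD14 carry a name from the same genetic screen as eIF2B but encode the subunits of a tRNA methyltransferase that modifies, among others, the initiator tRNA. GCD10 had 100.9, 80.1 and 101.6 at 12 °C and 35.9, 46.9 and 41.1 at 30 °C under nitrogen limitation, a rise of 1.19 ± 0.21 (2.28-fold; adjusted p = 0.000398). Its carbon-limited signals were 120, 109 and 123.4 at 12 °C and 63.4, 69.1 and 91.6 at 30 °C, a rise of 0.67 ± 0.21 (1.59-fold; adjusted p = 0.027, up to 0.124 with 1 array left out). The cold arrays were above the warm ones in both limitations. GCD14 differed by 0.17 and 0.39 under nitrogen and carbon limitation (adjusted p = 0.586 and 0.225). Without these 2 genes, 20 of 52 members rose under nitrogen limitation and the median was unchanged at 0.39.

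The eIF4 group recruits the mRNA through its cap. TIF1/TIF2, the shared measurement of both eIF4A genes, had 2123.6, 2317.3 and 1957.9 at 12 °C and 1240, 1423.7 and 1101.2 at 30 °C under nitrogen limitation, a rise of 0.77 ± 0.14 (1.70-fold; adjusted p = 0.000584). In the carbon-limited cultures the signals were 2142, 1956.6 and 2193.5 at 12 °C and 1506.4, 1623.9 and 1350 at 30 °C, a rise of 0.49 ± 0.14 (1.41-fold; adjusted p = 0.0179, up to 0.0787 with 1 array left out). All cold arrays exceeded all warm arrays of their limitation. The cap-binding protein eIF4E (CDC33) differed by 0.13 under nitrogen limitation, with a 95% interval of −0.26 to 0.51, and by 0.02 under carbon limitation. The eIF4A stimulator eIF4B (TIF3) stood at 0.50 and 0.17, neither past the threshold (adjusted p = 0.117 and 0.639).

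TIF4631 and TIF4632 are paralogous genes for eIF4G, the scaffold between the cap complex and eIF3. TIF4631 had 68.9, 53.2 and 74.2 at 12 °C and 58.9, 52.7 and 52.9 at 30 °C under nitrogen limitation, and 70, 83.7 and 40.3 at 12 °C and 62.1, 66.4 and 66.6 at 30 °C under carbon limitation. Its groups overlapped in both, with differences of 0.24 and −0.07 (adjusted p = 0.464 and 0.867). TIF4632 had 10, 13.7 and 17.5 at 12 °C, the first of these under the floor, and 23, 16 and 19.7 at 30 °C under nitrogen limitation, where the difference of −0.44 did not pass (adjusted p = 0.0968, and 0.0458 without nitrogen-limited replicate 3 at 12 °C). In carbon-limited cultures it had 22.5, 27 and 33 at 12 °C and 18.4, 19.6 and 15.5 at 30 °C, a rise of 0.61 ± 0.20 (1.53-fold; adjusted p = 0.037). The carbon-limited groups did not overlap and the nitrogen-limited ones did. All its signals were at or below 33, near the floor, and the carbon call was lost in 5 of 6 fits with 1 array left out (adjusted p up to 0.145).

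TIF4632 was also the only member whose temperature effect differed between limitations past the threshold. The difference of temperature effects, nitrogen minus carbon, was −1.06 ± 0.29 on the log2 scale (95% interval −1.67 to −0.44; adjusted p = 0.035), and 9 of 12 fits with 1 array left out lost the call (adjusted p between 0.0223 and 0.0922). Of all genes 7.44% passed this test, 4.53% in this direction. No member had a larger temperature effect under nitrogen limitation by the adjusted test, where 2.91% of all genes did. At an unadjusted p below 0.05, 9 members (16.7%) had a larger effect under nitrogen limitation, against 8.61% of all genes, and 1 (1.85%) a smaller one, against 14.1%. The median difference was 0.29 for members and −0.10 for all genes, and 44 members were above 0. For 53 of 54 members a difference between the limitations in temperature effect did not pass, whichever limitation held their calls. The nearest to the threshold on the positive side were HTS1 at 0.82 (adjusted p = 0.0592) and the asparaginyl-tRNA synthetase DED81 at 0.87 (adjusted p = 0.07). HTS1 passed with median scaling (0.0246), without carbon-limited replicate 1 at 12 °C (0.0215) and without nitrogen-limited replicate 1 at 12 °C (0.0469). Without the first of these replicates 3 members had a larger effect under nitrogen limitation past the threshold.

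**Figure D2:**
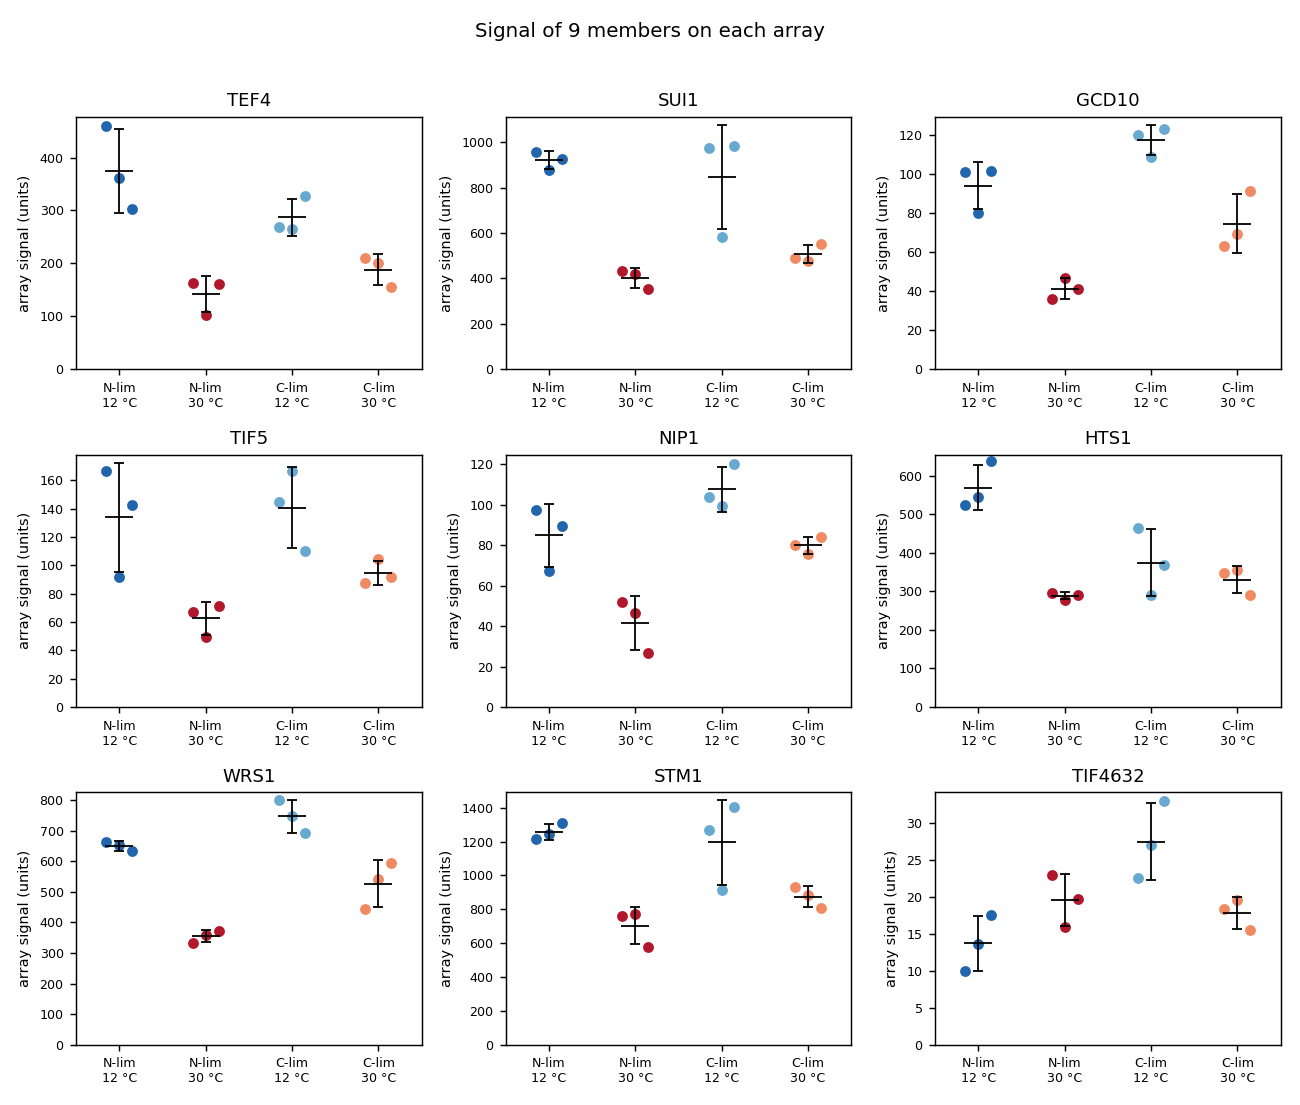
Array signal, in array units on linear axes from 0, is plotted for 9 members, with 1 point per array, the mean and SD of each group of 3 as bars, and the 4 groups side by side. The cold points of TEF4, SUI1, GCD10 and WRS1 stand above the warm points within each limitation, those of HTS1 do so under nitrogen limitation, and those of TIF4632 do so under carbon limitation.

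Among elongation factors TEF4 rose most, and most others did not pass. Of 7, 2 (28.6%) rose at 12 °C under nitrogen limitation (TEF4 and YEF3) and 0 fell, where 15.9% of all genes rose and 22.3% fell. The median log2 difference was 0.39. Under carbon limitation 1 (TEF4, 14.3%) rose, near the 13.1% of all genes, with a median of 0.21. At an unadjusted p below 0.05 in limma none was lower in either limitation, against 28.2% of all genes under nitrogen and 18.1% under carbon limitation.

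TEF4 encodes a gamma subunit of eEF1B, the exchange factor of the tRNA-delivering GTPase eEF1A, and showed the largest rise of any member under nitrogen limitation. Its signals were 459.2, 361.3 and 303.1 at 12 °C and 162.6, 101.9 and 161.5 at 30 °C, with means of 375 ± 78.9 at 12 °C and 142 ± 34.7 at 30 °C (SD, n = 3 each). No arrays overlapped, and the rise was 1.41 ± 0.22 (2.66-fold; adjusted p = 0.000137). Under carbon limitation the signals were 268.4, 265.4 and 328 at 12 °C and 209.3, 200.4 and 155.4 at 30 °C, a rise of 0.61 ± 0.22 (1.53-fold; adjusted p = 0.0491) with no overlap. The carbon call lay next to the threshold and was lost in all 6 fits with 1 array left out (adjusted p between 0.063 and 0.185). A second, dimmer probe set of TEF4 gave log2 differences of 1.55 under nitrogen and 0.32 under carbon limitation.

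CAM1, the paralog of TEF4 for the same subunit, had 264.7, 160.2 and 333.5 at 12 °C and 181, 153.4 and 142.9 at 30 °C under nitrogen limitation, with 1 cold array inside the warm range. The difference of 0.61 did not pass (adjusted p = 0.0575), but it did with quantile normalization (0.0281), with median scaling (0.0183) and without nitrogen-limited replicate 2 at 12 °C (0.00582). Under carbon limitation CAM1 had 374.7, 309.9 and 386.5 at 12 °C and 296.9, 444.5 and 295.4 at 30 °C, overlapping groups with a difference of 0.07 (adjusted p = 0.871). The catalytic subunit EFB1 of the same factor stood at 0.39 and 0.62 under nitrogen and carbon limitation, neither past the threshold (adjusted p = 0.208 and 0.0639). Its second probe set, which was not tested, gave 0.63 and 0.52.

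The GTPases of elongation showed no shift with temperature that these arrays could detect. TEF1/TEF2, the shared measurement of eEF1A, had 2549.2, 2660.9 and 2222.3 at 12 °C and 2489.8, 2267.2 and 2591.3 at 30 °C under nitrogen limitation, and 2668.4, 3036.8 and 3275.8 at 12 °C and 2573.7, 3088.2 and 3236.2 at 30 °C under carbon limitation. The nitrogen difference was 0.01 with a 95% interval of −0.28 to 0.31. EFT1/EFT2, the shared measurement of the translocase eEF2, had 1226.8, 794 and 798.3 at 12 °C and 975.5, 803.6 and 767.9 at 30 °C under nitrogen limitation, and 1011.9, 971.9 and 962.1 at 12 °C and 956.2, 1159.5 and 1017.7 at 30 °C under carbon limitation. Its nitrogen difference was 0.12 (95% interval −0.25 to 0.49), and the groups of both measurements overlapped in both limitations. Under carbon limitation the differences were 0.02 for TEF1/TEF2 and −0.08 for EFT1/EFT2 (adjusted p = 0.959 and 0.763).

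YEF3 encodes eEF3, the fungal ATPase that clears the exit site of the ribosome. It had 3465, 3786.5 and 3224.8 at 12 °C and 2638.9, 2653.3 and 2483.2 at 30 °C under nitrogen limitation, a rise of 0.43 ± 0.12 (1.35-fold; adjusted p = 0.0117) with no overlap, which was lost with quantile normalization (0.0857). With carbon limiting it had 3165.1, 3373.9 and 3385.2 at 12 °C and 2575.6, 2663.4 and 2777 at 30 °C, again without overlap, and the difference of 0.31 did not pass (adjusted p = 0.0733), but it did with a floor of 50 (0.0216) and with no filter on dim genes (0.0253). Its paralog HEF3, which is not a listed gene, had 31, 46.3 and 51 at 12 °C and 37.3, 31 and 30.9 at 30 °C under nitrogen limitation and 53.8, 39.6 and 42.9 at 12 °C and 48.8, 42.9 and 47.5 at 30 °C under carbon limitation. The HEF3 groups overlapped and its differences of 0.34 and −0.04 did not pass (adjusted p = 0.234 and 0.922).

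HYP2 encodes eIF5A, which helps the ribosome through difficult peptide bonds, and ANB1 is its near-identical paralog, known to be expressed without oxygen. A probe set of one may read the other, so their levels are uncertain. HYP2 had 3339, 4045 and 2699.9 at 12 °C and 2320.4, 2644 and 2666.1 at 30 °C under nitrogen limitation, and 1774.9, 3253.6 and 3276.1 at 12 °C and 2376.1, 2160.9 and 2396.2 at 30 °C under carbon limitation, with differences of 0.39 and 0.21 that did not pass (adjusted p = 0.156 and 0.503). Without carbon-limited replicate 1 at 12 °C, the array with 1774.9, the carbon difference was 0.50 and passed (adjusted p = 0.0479). ANB1, which is not a listed gene, had 2427.6, 1645.5 and 1619.6 at 12 °C and 2449.9, 2917 and 2407.9 at 30 °C under nitrogen limitation, where it fell by 0.47 on the log2 scale (adjusted p = 0.035). With carbon limiting it had 1580.3, 1636.8 and 1864.9 at 12 °C and 2098, 2355.5 and 1943.7 at 30 °C, with a difference of −0.33 (adjusted p = 0.16). The point estimates of the pair thus had opposite signs in both limitations.

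Of the release factors, SUP45 (eRF1), which reads stop codons, rose by 0.68 under nitrogen limitation (1.60-fold; adjusted p = 0.00458), and its GTPase partner SUP35 (eRF3) stood at 0.42 (adjusted p = 0.374). Neither passed under carbon limitation, at 0.19 and 0.08. STM1, a protein that binds and preserves idle ribosomes, had 1217.2, 1242.6 and 1309.6 at 12 °C and 760, 771 and 578.3 at 30 °C under nitrogen limitation, a rise of 0.85 ± 0.17 (1.80-fold; adjusted p = 0.00121) with no overlap. In carbon-limited cultures it had 1270.9, 915.8 and 1401.5 at 12 °C and 930.1, 887.1 and 806.7 at 30 °C, where 1 cold array lay within the warm range and the difference of 0.43 did not pass (adjusted p = 0.0743, and 0.0138 without that array). The poly(A)-binding protein PAB1 stood at 0.38 and 0.29 under nitrogen and carbon limitation (adjusted p = 0.145 and 0.323).

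**Figure D3:**
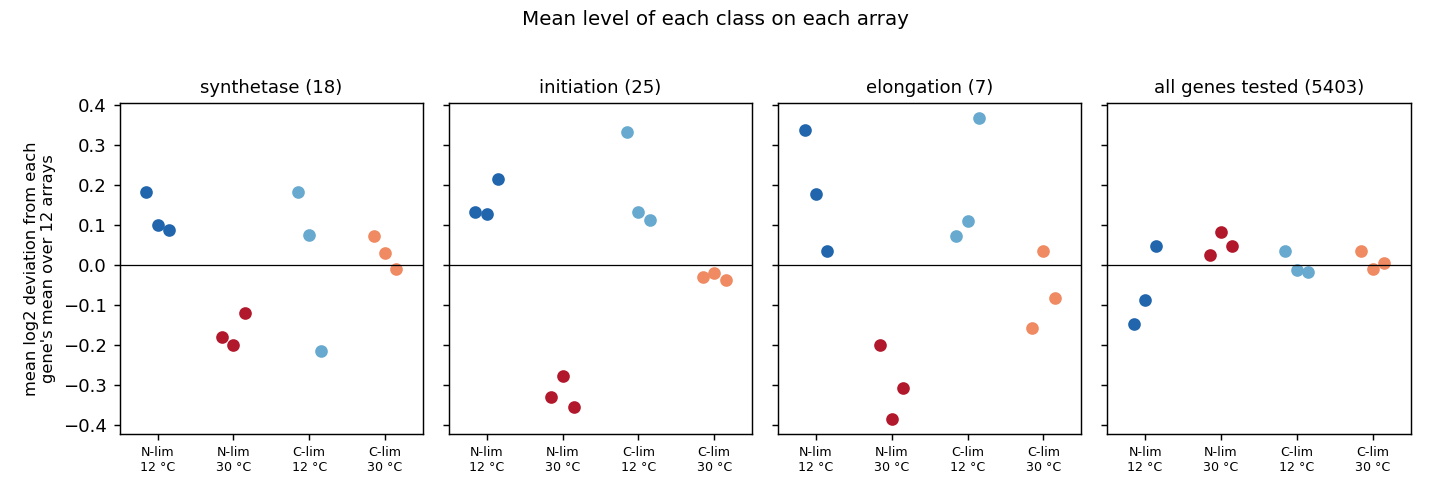
For each array the mean log2 deviation of genes from their own mean over all 12 arrays is plotted for the synthetases (18), initiation factors (25), elongation factors (7) and all genes tested (5403), with 1 point per array and the 4 groups side by side. The nitrogen-limited arrays at 30 °C lie lowest for initiation factors, between −0.36 and −0.28, and for elongation factors, between −0.38 and −0.20, while among synthetases 1 cold carbon-limited array lies as low, at −0.22.

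Seen over all 4 groups, the members were lowest in the warm nitrogen-limited cultures. The mean deviation of the 54 members from their own 12-array mean was 0.19, 0.13 and 0.16 log2 units on the nitrogen-limited arrays at 12 °C and −0.25, −0.26 and −0.28 on those at 30 °C. It was 0.24, 0.09 and 0.05 on the carbon-limited arrays at 12 °C and −0.01, −0.01 and −0.04 on those at 30 °C. The nitrogen-limited cultures at 30 °C had the lowest group mean for 37 of 54 members (68.5%), against 27.1% of all genes. The highest mean was in the cold nitrogen-limited cultures for 20 members and in the cold carbon-limited cultures for 19, while for 15 it was in a warm group. Initiation factors in nitrogen-limited cultures had deviations of 0.13, 0.13 and 0.22 at 12 °C and −0.33, −0.28 and −0.36 at 30 °C. The synthetases of the third cold carbon-limited culture stood apart at −0.22, where the other arrays of its group were at 0.18 and 0.08.

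The nutrient comparison at 30 °C is the counterpart of this pattern and shares the warm nitrogen-limited arrays with the temperature comparison, so the values are given side by side and do not count as separate support. At 30 °C, 9 of 54 members (16.7%) fell under nitrogen relative to carbon limitation and 0 rose, where 12.6% of all genes fell and 14.3% rose. At an unadjusted p below 0.05 in limma, 14 members (25.9%) were lower and 0 higher, against 18.2% and 21% of all genes. The median log2 difference was −0.25 for members and 0.04 for all genes, and 13 members were above 0. Arrays of the nutrients did not overlap for 29 members, 25 of them lower under nitrogen limitation, while 51.2% of all genes did not overlap. The members that fell were 5 initiation factors, with the tRNA methyltransferase gene GCD10 counted among them, 3 synthetases and 1 elongation factor.

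CAM1 showed the largest of these falls. It had 181, 153.4 and 142.9 under nitrogen limitation and 296.9, 444.5 and 295.4 under carbon limitation at 30 °C, a log2 difference of −1.10 ± 0.24 (2.14-fold lower; adjusted p = 0.00357). NIP1 of eIF3 had 52.1, 46.3 and 26.5 under nitrogen limitation and 80.1, 75.7 and 83.9 under carbon limitation, a difference of −0.997 ± 0.25 (2.00-fold lower; adjusted p = 0.00752). All nitrogen-limited arrays of both genes were below all carbon-limited ones.

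GCD10 had 35.9, 46.9 and 41.1 under nitrogen limitation and 63.4, 69.1 and 91.6 under carbon limitation at 30 °C, a difference of −0.85 ± 0.21 (1.80-fold lower; adjusted p = 0.0071). The eIF2 subunit SUI3 had 187.8, 138.2 and 155.5 under nitrogen limitation and 272, 269 and 291.1 under carbon limitation, a difference of −0.80 ± 0.18 (1.74-fold lower; adjusted p = 0.00456). GCD11, its partner in eIF2, had 478.6, 405 and 480.6 under nitrogen limitation and 820.3, 563.3 and 775.6 under carbon limitation (−0.65 ± 0.18; 1.57-fold lower; adjusted p = 0.0159, up to 0.0785 with 1 array left out). None of these groups overlapped.

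Among the synthetases at 30 °C, SES1, which charges serine tRNAs, had 346, 270.5 and 338.9 under nitrogen limitation and 461.4, 491.5 and 486.3 under carbon limitation (−0.60 ± 0.15; 1.51-fold lower; adjusted p = 0.00935, and 0.0564 without nitrogen-limited replicate 2). WRS1 fell by 0.56 (adjusted p = 0.0108, and 0.0572 without carbon-limited replicate 3), and FRS1 by 0.48 (adjusted p = 0.0384, up to 0.153 with 1 array left out). The eIF3 subunit PRT1 fell by 0.49 (adjusted p = 0.0308, up to 0.0945 with 1 array left out). FRS2, the partner of FRS1, did not pass at −0.02 (adjusted p = 0.962). With only the groups at 30 °C in the fit, 17 members fell in place of 9.

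At 12 °C few members passed between the limitations. Of 54 members 1 (TIF4632, 1.85%) fell under nitrogen relative to carbon limitation and 0 rose, against 3.85% and 1.81% of all genes (5.66% in either direction). At an unadjusted p below 0.05 in limma, 6 members (11.1%) were higher and 3 (5.56%) lower, against 8.37% and 15% of all genes. The median log2 difference was 0.02 for members and −0.05 for all genes, and arrays did not overlap for 11 members, 3 of them higher, where 21.6% of all genes did not overlap. TIF4632 had 10, 13.7 and 17.5 under nitrogen limitation and 22.5, 27 and 33 under carbon limitation at 12 °C, without overlap (−0.93 ± 0.20; 1.91-fold lower; adjusted p = 0.0184). This call was lost without carbon-limited replicate 3 (0.0701) or nitrogen-limited replicate 2 (0.0622) and in a fit of only the cold groups (0.179). HTS1 had 525.6, 546 and 637.3 under nitrogen limitation and 464.9, 291.2 and 369 under carbon limitation at 12 °C, groups that did not overlap. Its difference of 0.62 did not pass (adjusted p = 0.051), but it did with median scaling (0.0274) and without carbon-limited replicate 1 (0.0227).

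**Figure D4:**
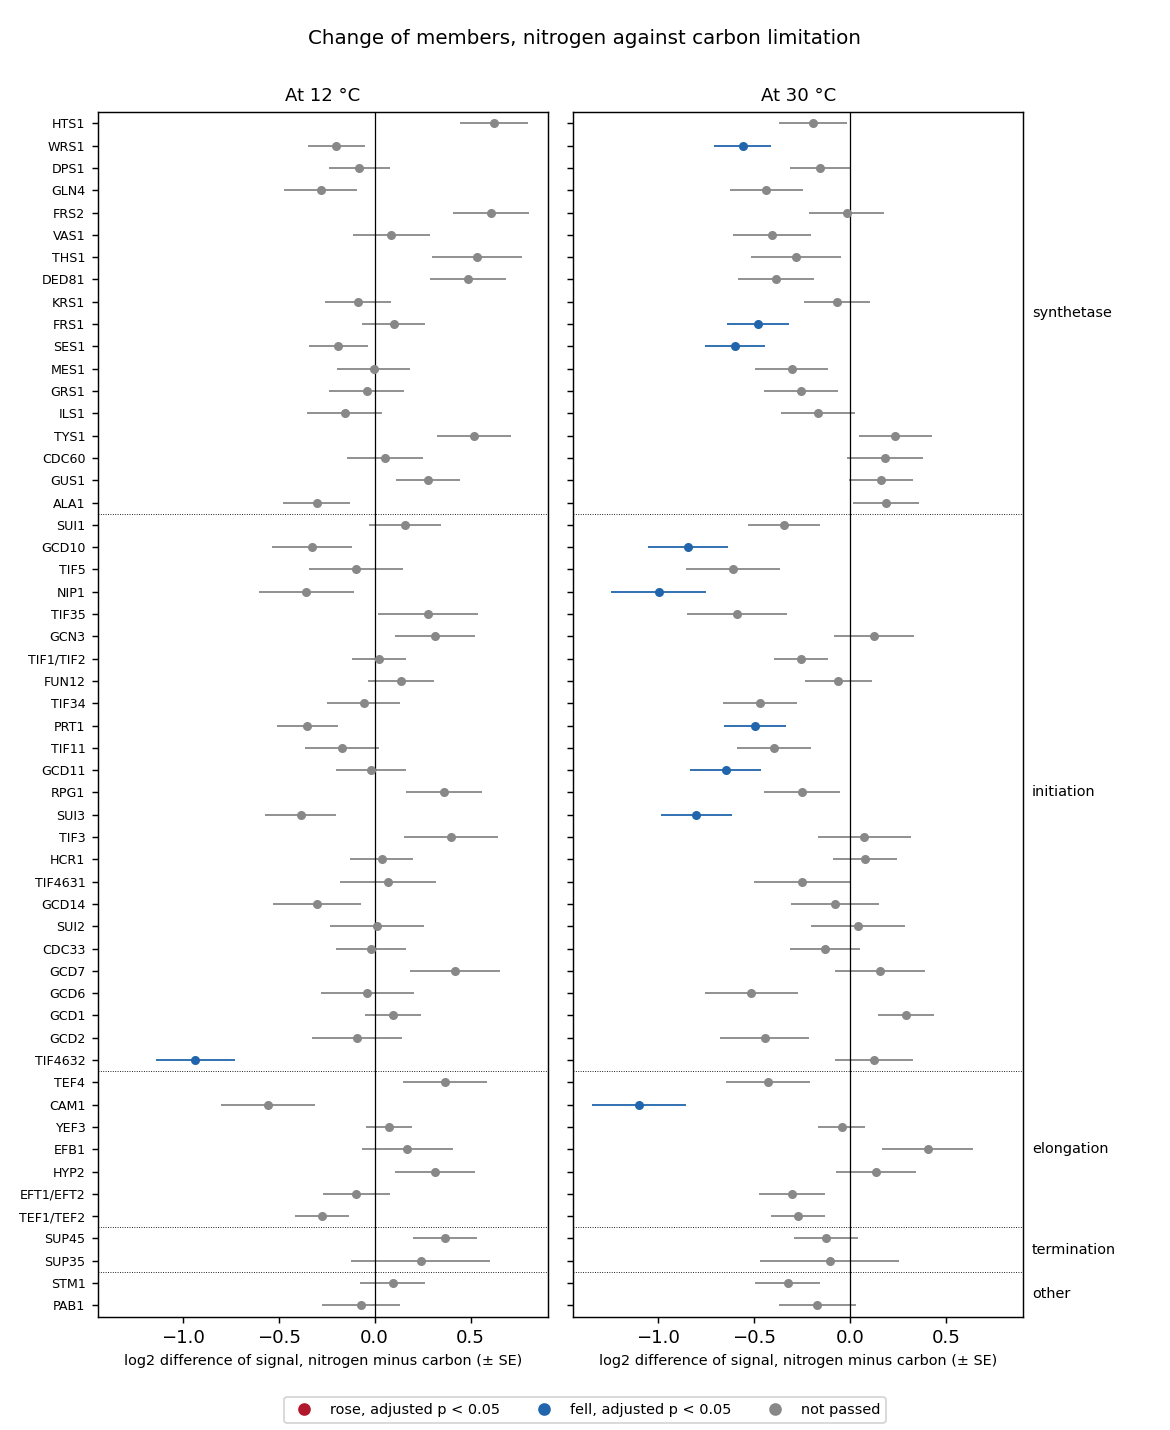
The log2 difference of signal, nitrogen minus carbon limitation, is plotted for each member with its standard error at 12 °C on the left and at 30 °C on the right, in the order of the temperature plot. At 30 °C 9 members are past the threshold downward and 13 of 54 points lie right of 0. At 12 °C 1 is past it.

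A wider list held 58 other genes of the translation pathway, all tested. At 12 °C under nitrogen limitation 14 (24.1%) rose and 3 (5.17%) fell, and under carbon limitation 11 (19%) rose and 3 (5.17%) fell. The median log2 differences were 0.35 and 0.21. Over all genes 15.9% and 13.1% rose, and 22.3% and 12.6% fell. Of 17 further initiation and regulatory genes 4 rose and 2 fell under nitrogen limitation, and 5 rose and 2 fell under carbon limitation. Of 10 further elongation genes 4 rose and 1 fell under nitrogen limitation and 3 rose under carbon limitation, and of 7 termination and recycling genes 1 rose in each. Of the 4 remaining cytosolic synthetases and cofactors 1 rose under nitrogen limitation.

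The wider list was chosen with earlier results of these data known. In both limitations its largest rise was EFM6, a methyltransferase that modifies eEF1A. It had 387.5, 379.5 and 458.8 at 12 °C and 17.4, 17.3 and 15.7 at 30 °C under nitrogen limitation, a rise of 4.60 ± 0.26 (24.3-fold; adjusted p = 3.93e-09). Under carbon limitation it had 326.8, 216.6 and 381.6 at 12 °C and 13.4, 24.3 and 12.8 at 30 °C, a rise of 4.22 ± 0.26 (18.6-fold; adjusted p = 1.44e-08). Its warm signals were near the floor in both limitations and its cold signals far above it, a far larger shift than that of its substrate eEF1A or of any member. The largest fall under nitrogen limitation was GCN2, the kinase of eIF2, with 13.7, 22.5 and 20.3 at 12 °C and 36.5, 27.5 and 27.9 at 30 °C, a difference of −0.72 (1.65-fold lower; adjusted p = 0.0299). Under carbon limitation it was PBP1, a partner of PAB1, with 297.8, 291 and 171.8 at 12 °C and 383.7, 343 and 377.3 at 30 °C, a difference of −0.58 (1.49-fold lower; adjusted p = 0.0451).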

How the data were processed

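PolyA RNA of 12 cultures was hybridised to Affymetrix arrays. The authors deposited 1 linear intensity per probe set and array, made with GCOS, per the submitters' processing notes, of which neither the version, the algorithm nor the scaling target is named in these sources. On every array the mean after trimming 2% of probe sets at each end was 150.1, so a common scaling had been applied before deposit. Groups came from sample titles. Of 9335 probe sets, 6504 had 1 annotated gene, 328 several and 2503 were not listed, 60 being controls. Probe sets with 1 gene were used, and 3 that name exactly a listed pair were kept as 1 measurement each. Signals below 12 were raised to 12, log2 was taken, and genes above 12 on at least 3 arrays were tested (5403 of 5659).

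Group means were fitted on all 12 arrays by lmFit in limma 3.58.1 (R 4.3.3), and eBayes was run with its trend option. P values were adjusted by Benjamini-Hochberg over all genes tested in each of 5 comparisons, at a threshold of 0.05. Every adjusted p of a gene comes from limma, standard errors are on the log2 scale, and "rose" and "fell" mean past that threshold. The number of arrays limits the precision. The scripts were tested on simulated data. Members and lists were chosen with earlier results of these data known. Every member called in a comparison was named, and values by array were given for up to 8 members with the largest called change in each temperature comparison, up to 6 in each nutrient comparison, members against the common direction and paralogous pairs, while of the 58 other translation genes the largest called rise and fall were named. The second probe set of a gene was not tested. Alternatives were other floors, offsets, filters, scalings, variance models, probe set rules, sample choices, a replicate block and leaving out 1 array. Gene and protein sequences were not used here. No source used here names a batch or scan date.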

Additional observations from a re-analysis of the deposited data

Results flagged for a closer look

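The temperature effect of TIF4632, an eIF4G gene, differed between the limitations by −1.06 on the log2 scale, nitrogen minus carbon (adjusted p = 0.035 in limma), by a test of the difference itself. All its signals were near the floor.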

How the results depend on the processing

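Under nitrogen limitation 18 to 27 members were called over the other settings and 17 to 22 with 1 array left out, and 14 of 22 calls held in every alternative run: HTS1, WRS1, TIF1/TIF2, TIF5, TIF34, PRT1, NIP1, SUI1, GCD10, GCN3, FUN12, TEF4, SUP45 and STM1. Under carbon limitation none of 9 calls held in all of them, with 7 to 10 members called over the other settings and 1 to 10 with 1 array left out (921 to 1262 of all genes, against 1390). For the difference of temperature effects 0 members were called with a floor of 50, log2(signal + 16), quantile normalization or the replicate block. With median scaling 2 were called, both with a larger effect under nitrogen limitation, and TIF4632 was lost (adjusted p = 0.0619). With 1 array left out 0 to 4 were called (246 to 480 of all genes, against 402). At 30 °C 17 members differed between nutrients with only the groups compared, against 9, and 4 of 9 calls held in every alternative (NIP1, SUI3, GCD10 and CAM1). At 12 °C 0 members were called with a floor of 50 or with only the groups compared, 2 with median scaling and 0 to 2 with 1 array left out. Over all genes the 12 °C count was 306, against 153 with a floor of 50, 203 with no filter, 4 with only the groups compared and 128 to 394 with 1 array left out. The median SD within a group over all genes was 0.28 log2 units at 12 °C and 0.18 at 30 °C under nitrogen limitation. Under carbon limitation it was 0.26 at 12 °C and 0.18 at 30 °C. The main fit used 1 shared estimate of the spread for all groups, a fit of only the groups compared did not. The cause of these shifts was not tested. All signals of TIF4632, GCD2 and KRS1 were below 50. None of these genes could pass at a floor of 50, so that setting does not test the calls of TIF4632 and GCD2. Of the values of single genes, 2475 kept their side of the threshold, 110 lost it, 25 gained it and 0 changed sign past it.

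Scaling moved the split of rises and falls over all genes: under nitrogen limitation it was 859 and 1206 as deposited, 1070 and 929 with quantile normalization and 1140 and 913 with median scaling. For the difference it was 157 and 245, 225 and 221, and 250 and 180, and for nutrients at 12 °C it was 98 and 208 as deposited and 142 and 153 with median scaling. Replicate numbers did not pair the arrays: the correlation of same-numbered arrays' deviations was −0.20 to 0.18 over 18 pairs, 3 above 0.1, and 2 of 12 arrays were closest to their own number. The replicate block gave 21 members under nitrogen and 8 under carbon limitation, 0 for the difference, 8 at 30 °C and 1 at 12 °C. It lost the calls of ALA1 under nitrogen limitation (adjusted p = 0.0557), TEF4 under carbon limitation (0.0546), PRT1 at 30 °C (0.0514) and TIF4632 for the difference (0.0516). Dim genes such as KRS1, TIF4632 and GCD2 lie near the floor, where the signal limits what can be measured.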

Other observations

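Mitochondrial translation genes, which are not members but were listed beside them, differed between nutrients at 30 °C. Of 14 mitochondrial aminoacyl-tRNA synthetases 7 fell under nitrogen relative to carbon limitation (median log2 difference −0.75), and of 6 mitochondrial translation factors 5 fell (median −1.02), where 12.6% of all genes fell. The elongation factor MEF1, chosen after its values were seen, had the largest of these falls at −1.27. At 12 °C 4 of the 14 synthetases (28.6%) and 1 of the 6 factors (16.7%) fell, against 3.85% of all genes. The summed signal of 3 genes of respiration (CYC1, COX6 and QCR2) moved with the same comparison: it was 423.6 to 538.1 in nitrogen-limited and 1695 to 2018 in carbon-limited cultures at 30 °C, and its part in these values was not tested. In the temperature comparison 3 of the 14 synthetases (21.4%) and 1 of the 6 factors (16.7%) rose at 12 °C under nitrogen limitation, against 15.9% of all genes. Under carbon limitation 2 of the 14 synthetases (14.3%) rose and 1 (7.14%) fell, against 13.1% and 12.6% of all genes.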
